A study of Mus musculus with 6 samples.

Results

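A set of 9 genes of the thymic cortical epithelium, chosen by name from the 24054 genes of the count table, is described across all 6 libraries: Psmb11, Prss16, Tbata, Ctsl, Ly75, Enpep, Dll4, Foxn1 and Kitl, with the chemokines of that cell type left out. All 9 members were in the table, and all 9 passed the low-count filter. The libraries hold messenger RNA of whole mouse thymus, 3 from controls and 3 from animals with K5-rtTA and TetO-RANKL. In that pair of transgenes the keratin 5 promoter drives a doxycycline-dependent activator, so that doxycycline turns on the cytokine RANKL in keratin 5 cells such as basal and medullary epithelium. The controls carried a single transgene and also received doxycycline in food and water; which of the transgenes they carried, the strain and the sex are not stated. One text dates the start of doxycycline to week 8 of life and its length to 1 week, another to week 9 and 2 weeks. Whether each library is a different mouse is not stated, so the tests weigh only how far these 6 libraries spread, which may be technical.

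The cortex is the outer zone of the thymus, where its epithelium receives incoming progenitors, supplies the Notch signal that commits them to the T lineage, and then displays self-peptides to CD4 and CD8 double-positive thymocytes. For MHC class I those peptides are made with a proteasome whose catalytic subunit is encoded by Psmb11. For MHC class II they are made with the proteases encoded by Prss16 and Ctsl. Few other cells use the products of Psmb11 and Prss16, whereas macrophages and fibroblasts also make that of Ctsl. The transcription factor encoded by Foxn1 is needed for thymic epithelium to form and to keep these genes on. Whole tissue was sequenced, and levels are relative to the size of each library. Changed numbers of cells of a type and changed RNA per cell therefore cannot be told apart, whether a gene was lower, higher or not called.

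Libraries held 18254870 to 25357060 counts, so that 3 reads, taken as the floor, are 0.122 to 0.161 CPM (counts scaled to the size of each library). Tnfsf11, the gene of RANKL, was at 6.01, 6.34 and 8.89 CPM in control replicates 1, 2 and 3 and at 3334, 4812 and 2390 CPM in RANKL replicates 1, 2 and 3, as the labels say.

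The members did not move together. In RANKL libraries 6 of the 9 were lower, 1 was higher and 2 were not called (edgeR quasi-likelihood test, adjusted p under 0.05), and their median log2 fold change was -1.18 against -0.02 over all 16096 genes tested. Of all genes tested 29.6% were lower and 33.8% higher by the same rule, so calls were common in this comparison. The library values of 7 members did not overlap between groups on the lower side, as for 34.1% of all genes, and those of 1 on the higher side, as for 36.1%. The decreases ran from 61.9-fold for Psmb11 through 21.0-fold for Prss16, 10.3-fold for Tbata and 4.07-fold for Enpep to 2.27-fold for Ly75 and 1.87-fold for Ctsl. Foxn1 was 1.82-fold higher. Dll4 and Kitl were not called.

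**Figure D1:**
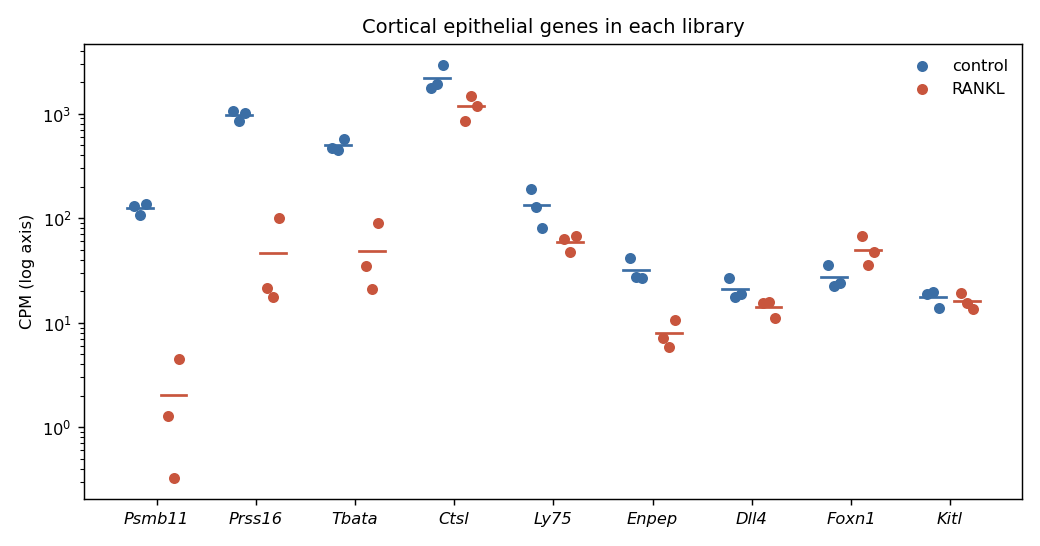
Level of each gene in each library, in CPM (log axis), with 3 control libraries in blue and 3 RANKL libraries in red; short lines are group means. Psmb11 lies between 108 and 137 in control and between 0.325 and 4.48 in RANKL libraries, whereas the Kitl libraries of both groups lie between 13.4 and 19.7.

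Foxn1 protein has been reported to recognise a short GACGC core, so the 250 bases before the start that RefSeq's promoter table gives for each member (build GRCm38.p6) were searched for GACGC and its reverse complement GCGTC, which do not overlap one another in these windows. A window was found for 8 of the 9 members. Of these 8 windows 3 held the letters, against 22.6% of all 32851 windows in the same table, which were not split by their place. For 5 of the 8 (Psmb11, Tbata, Ly75, Enpep and Dll4) the window lay wholly outside the RefSeq span of the gene. Of those 5, 2 held the letters, Psmb11 and Enpep. For the other 3 the window lay in part or whole inside the gene, by 250 bases for Ctsl, 206 for Kitl and 175 for Foxn1, so these are not windows upstream of the gene; Kitl held a match and Ctsl and Foxn1 held none. The matches of Psmb11, which fell, and of Kitl, which was not called, are shown with their neighbouring bases, and the whole windows of Enpep, which fell and holds a match, and of Tbata, which fell and holds none, all 5′ to 3′ with the matches in capitals. The Psmb11 stretches are chr14:54625060-54625087 and chr14:54625236-54625264 and the Kitl stretch is chr10:100015626-100015654, all on the plus strand. The Enpep window is chr3:129332750-129332999 on the minus strand and the Tbata window chr10:61171714-61171963 on the plus strand.
Psmb11, farther match: gctgacaggtgGCGTCttcagagtgtag
Psmb11, nearer match: agcttctccacaGCGTCctcctcctcctc
Kitl: acccagacagggGACGCaccaggctcgat
Enpep: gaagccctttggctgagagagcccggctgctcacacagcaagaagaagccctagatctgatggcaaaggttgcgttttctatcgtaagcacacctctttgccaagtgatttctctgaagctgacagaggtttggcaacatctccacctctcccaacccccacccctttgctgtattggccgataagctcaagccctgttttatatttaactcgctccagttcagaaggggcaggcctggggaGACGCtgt
Tbata: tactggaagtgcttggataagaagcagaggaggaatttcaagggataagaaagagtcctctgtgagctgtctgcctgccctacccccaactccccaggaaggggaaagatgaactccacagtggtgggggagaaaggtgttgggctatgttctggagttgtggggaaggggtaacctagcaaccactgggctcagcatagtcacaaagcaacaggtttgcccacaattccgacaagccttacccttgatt
In Psmb11 the matches began 239 and 62 bases before the start in the table, in Enpep 8 bases and in Kitl 183 bases before it. A longer GENCODE transcript model of Psmb11 runs through its window. A match is a description of letters and says nothing of binding.

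Psmb11 encodes the catalytic subunit of the thymoproteasome, the form of the proteasome that cortical epithelium uses to make peptides for MHC class I. The gene has 1 exon (Entrez gene 73902, chromosome 14, 54625310 to 54629556 in GRCm38). It had 2463, 2096 and 2869 reads in control replicates 1, 2 and 3, and 24, 8 and 95 in RANKL replicates 1, 2 and 3. In CPM that was 129.9, 108 and 137 against 1.29, 0.325 and 4.48. Every RANKL library lay far below every control library, and the RANKL libraries also differed from each other beyond counting error, the 95% Poisson intervals being 0.828 to 1.92, 0.140 to 0.641 and 3.62 to 5.47 CPM. The log2 fold change was -5.95 ± 0.67 (SE; adjusted p = 7.84e-05), the lowest of all 16096 genes tested with all libraries in the fit. Without RANKL replicate 3 it was -7.31.

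The subunits that share the beta5 position with the Psmb11 product were not called. Psmb5, of the standard proteasome, was at 39.6 ± 7.36 CPM in control and 36.4 ± 2.00 CPM in RANKL libraries (mean ± SD, n = 3 each), and Psmb8, of the immunoproteasome, at 445 ± 55.8 and 420.2 ± 103.2 CPM. Scaled by transcript length, Psmb11 made up 8.80%, 8.40% and 8.25% of the summed level of these 3 genes in the control libraries and 0.0889%, 0.0335% and 0.323% in the RANKL libraries. Psmb8 was the largest part in all 6 libraries, from 78.1% to 88.3%, which includes what thymocytes and other cells make. The other catalytic subunits of the immunoproteasome, Psmb9 and Psmb10, had log2 fold changes of -0.01 ± 0.23 and -0.04 ± 0.23 (SE) and were not called. Of 15 genes of catalytic proteasome subunits, their activators and class I peptide loading, 4 were higher and 11 not called, with a median of -0.04. Those higher were B2m, the class I light chain, at 1.59 ± 0.22, the loading factors Tapbp at 1.03 ± 0.19 and Tap1 at 0.71 ± 0.19, and the proteasome activator Psme2 at 0.87 ± 0.20.

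**Figure D2:**
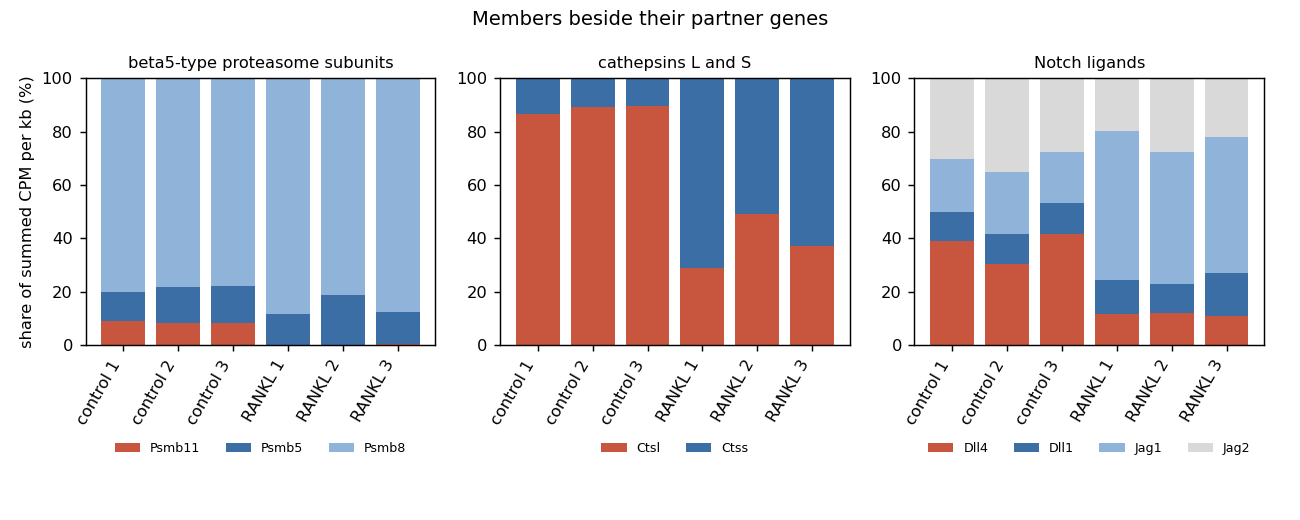
Stacked shares, in percent of the summed CPM per kb of transcript, of Psmb11 beside Psmb5 and Psmb8, of Ctsl beside Ctss, and of Dll4 beside Dll1, Jag1 and Jag2, with 1 bar for each of the 6 libraries. The red part, the cortical gene, is 8.25% to 8.80%, 86.8% to 89.6% and 30.3% to 41.6% in control libraries, and smaller in every RANKL library.

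Prss16 and Ctsl encode proteases for the class II side. Prss16, the thymus-specific serine protease (Entrez gene 54373, chromosome 13, 22002176 to 22009741), was at 1059, 855 and 1004 CPM in the control libraries and at 21.3, 17.8 and 99.6 CPM in the RANKL libraries. The groups lay apart by a wide gap, and RANKL replicate 3 was several times above the other RANKL libraries. Its log2 fold change was -4.39 ± 0.64 (SE; adjusted p = 0.000349), and -5.60 without RANKL replicate 3.

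Ctsl encodes cathepsin L, a lysosomal protease that cortical epithelium uses for invariant chain and peptide processing and that macrophages and fibroblasts also make (Entrez gene 13039, chromosome 13, 64361890 to 64370772). Its control libraries were at 1750, 1923 and 2942 CPM and its RANKL libraries at 858, 1487 and 1187 CPM. The groups did not overlap, but the highest RANKL library came close to the lowest control library. The log2 fold change was -0.91 ± 0.27 (SE; adjusted p = 0.0145), and the call was lost without control replicate 3 (-0.66, adjusted p = 0.0538) or RANKL replicate 1 (-0.69, adjusted p = 0.0695). The 10 placental cathepsin genes, its near relatives, had at most 23 reads in a library.

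Cathepsin S, the protease that medullary epithelium and bone marrow-derived cells use in place of cathepsin L, went the other way. Ctss was at 183, 162 and 234 CPM in control and at 1450, 1067 and 1372 CPM in RANKL libraries, a log2 fold change of 2.75 ± 0.22 (SE; adjusted p = 1.11e-05). Per kb of transcript, Ctsl made up 86.8%, 89.1% and 89.6% of the sum of both genes in control libraries and 28.9%, 48.9% and 37.3% in RANKL libraries. Ctsl was therefore the larger part in every control library and the smaller part in every RANKL library. Of 15 other genes of the class II pathway 14 were higher and 1, H2-Oa, was not called, with a median of 1.73. H2-Oa passed as higher with DESeq2 (0.69, adjusted p = 0.0377) and without RANKL replicate 2 (0.98, adjusted p = 0.0028). Besides Ctss, the smallest p-values were those of the cathepsins Ctsk at 3.35 ± 0.25, Ctsh at 2.61 ± 0.17 and Ctsz at 2.20 ± 0.20. Markers of macrophages and dendritic cells, which make class II genes too, were higher in 8 of 11, lower in 2 (Xcr1 and Clec9a, of cross-presenting dendritic cells) and not called in 1, their summed level going from 885 to 1093 CPM in control to 1908 to 2479 CPM in RANKL libraries, with none at 0 in control. Their part in the Ctsl and Ctss values was not tested.

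Tbata, Ly75 and Enpep mark cortical epithelium without a part in the display of peptides that is as well described. Tbata, named for thymus, brain and testis (Entrez gene 65971, chromosome 10, 61171964 to 61188841), was at 474, 450.0 and 570 CPM in control and at 35.0, 21.1 and 89.5 CPM in RANKL libraries. All RANKL values lay below all control values, with replicate 3 again the highest. The log2 fold change was -3.36 ± 0.47 (SE; adjusted p = 0.000238), or -4.13 without RANKL replicate 3.

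Enpep, glutamyl aminopeptidase, is the surface protein Ly51 by which cortical epithelium is sorted (Entrez gene 13809, chromosome 3, 129269177 to 129332749). It was at 41.9, 27.5 and 27.0 CPM in control and at 7.21, 5.82 and 10.7 CPM in RANKL libraries. No library overlapped the other group, and the log2 fold change was -2.03 ± 0.28 (SE; adjusted p = 0.00022).

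Ly75 encodes DEC-205, an uptake receptor of cortical epithelium and of dendritic cells (Entrez gene 17076, chromosome 2, 60292103 to 60383273). Control libraries spread from 81.1 CPM in replicate 3 through 129 CPM in replicate 2 to 192 CPM in replicate 1, and RANKL libraries were at 62.9, 47.9 and 66.8 CPM. The control libraries thus varied more than the RANKL libraries, and the lowest of them stood not far above the highest RANKL library. The log2 fold change was -1.18 ± 0.29 (SE; adjusted p = 0.00522). Markers of macrophages and dendritic cells changed too, as given above, and their part in the Ly75 values was not tested.

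**Figure D3:**
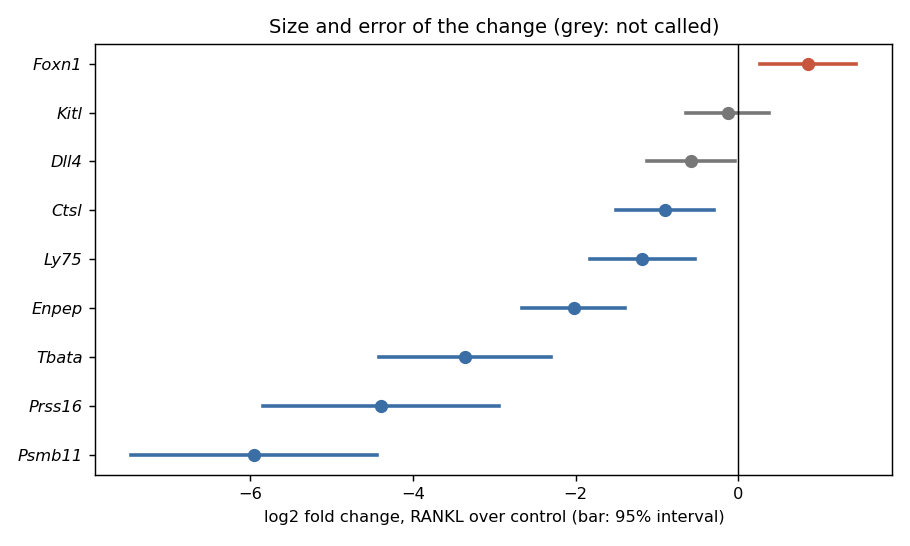
Log2 fold change of each gene, RANKL over control, with its 95% interval from the edgeR fit; blue is lower, red higher and grey not called. Psmb11 stands at the left at -5.95 and Foxn1 at the right at 0.86, and the intervals of Psmb11 (-7.46 to -4.44) and Ctsl (-1.51 to -0.30) do not meet.

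Dll4 and Kitl encode signals from the epithelium to progenitors. Dll4 is the Notch ligand that commits progenitors to the T lineage (Entrez gene 54485, chromosome 2, 119325784 to 119335666). It was at 27.0, 17.6 and 18.8 CPM in control and at 15.6, 15.8 and 11.0 CPM in RANKL libraries. The groups did not overlap, but the gap was narrow. The log2 fold change was -0.58 ± 0.24 (SE), with a 95% interval of -1.13 to -0.04 and an adjusted p of 0.0587 by edgeR. Dll4 passed the threshold with DESeq2 (adjusted p = 0.0471), without the low-count filter (0.0318) and without control replicate 2 (0.0488), and over the libraries left out its adjusted p reached 0.224. A predicted gene, Gm14207, with 21 to 75 reads a library, overlaps Dll4, and although the library kit marks strand, the strand setting of the counting is not known here, so their reads cannot be told apart.

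The other Notch ligands were higher. Jag1 went from 17.9 ± 4.39 to 95.3 ± 17.01 CPM (log2 fold change 2.41 ± 0.23, SE), Dll1 from 6.23 ± 1.18 to 15.2 ± 1.73 CPM (1.29 ± 0.24) and Jag2 from 24.5 ± 6.50 to 38.5 ± 9.47 CPM (0.65 ± 0.25). The call of Jag2 was lost with 5 of the 12 other settings, its adjusted p reaching 0.144. Per kb of transcript, Dll4 made up 38.9%, 30.3% and 41.6% of the 4 ligands' sum in control libraries and 11.7%, 12.1% and 10.8% in RANKL libraries, where Jag1 held 49.6% to 55.6%. Of 13 genes of the Notch pathway other than Dll4, 6 were higher, 2 lower and 5 not called. Notch1, the receptor of early thymocytes, was at 188 ± 76.3 and 127 ± 10.6 CPM and was not called, though it passed as lower without the low-count filter (-0.64, adjusted p = 0.0387) and without control replicate 3 (-0.84, adjusted p = 0.0072). The targets Hes1 and Nrarp rose by 1.37 ± 0.20 and 1.61 ± 0.24, while Dtx1, a target in early thymocytes, and Mfng, a glycosyltransferase that tunes Notch, fell by 1.65 and 1.10 on the log2 scale.

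Kitl encodes stem cell factor, the ligand of Kit on progenitors, and is also made by endothelium, fibroblasts and keratinocytes (Entrez gene 17311, chromosome 10, 100015615 to 100100416). It was at 19.0, 19.7 and 13.9 CPM in control and at 19.1, 15.5 and 13.4 CPM in RANKL libraries. The groups overlapped, and the log2 fold change of -0.13 ± 0.23 (SE) had a 95% interval of -0.64 to 0.38. The sign turned without RANKL replicate 3 (0.015) and with a block for the number in the sample titles (0.038). Its receptor Kit went from 12.7 ± 2.03 to 19.8 ± 1.44 CPM (0.63 ± 0.20, adjusted p = 0.0208), a call lost without control replicate 2, control replicate 3 or RANKL replicate 1, with an adjusted p of 0.0612 at most. Il7, the other main progenitor cytokine of cortical epithelium, was at 24.0 ± 5.10 and 17.7 ± 2.78 CPM and was not called, though it passed without control replicate 1 (-0.62, adjusted p = 0.0319). Of 8 genes listed beside Kitl (progenitor cytokines, their receptors and other factors), 3 were higher, 1 was lower and 4 were not called. Those higher were Kit, the macrophage factor Csf1 at 3.50 ± 0.29 and the transcription factor Lyl1 at 1.37 ± 0.24. The 1 lower was Il2rg, the common gamma chain, which fell by 0.87.

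Cells other than epithelium that can make Dll4, Kitl and Enpep also changed in their markers. Vascular endothelial genes were higher in 7 of 10 and not called in 3, with a summed level of 232 to 299 CPM in control and 340 to 448 CPM in RANKL libraries. Fibroblast and pericyte genes were higher in 10 of 10, with sums of 454 to 577 and 4130 to 7985 CPM. None of these markers was at 0 in control, and their part in the values of Dll4, Kitl and Enpep was not tested.

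Foxn1, the factor on which thymic epithelium depends and which skin keratinocytes also use (Entrez gene 15218, chromosome 11, 78357577 to 78386783), was the 1 member higher in RANKL libraries. It was at 35.7, 22.6 and 24.2 CPM in control and at 66.9, 35.7 and 47.3 CPM in RANKL libraries. Control replicate 1 and RANKL replicate 2 were almost level, the latter higher by a trace, and the groups did not overlap. The log2 fold change was 0.86 ± 0.26 (SE; adjusted p = 0.0166), and the call was lost without control replicate 2 (0.71, adjusted p = 0.0769) or control replicate 3 (0.76, adjusted p = 0.0664). A predicted gene, Gm30367, overlaps Foxn1 in RefSeq.

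Of 7 tested factors that pattern thymic epithelium or keep its identity, 5 were higher and 2 were not called, with a median of 1.43. Those with the smallest p were Trp63, the factor of basal epithelium, which rose by 1.43 ± 0.16, and Pax9, a factor of the pharyngeal pouch from which the thymus forms, which rose by 2.21 ± 0.30 (log2, SE). Pax1, at 91.8 ± 11.1 and 100.7 ± 18.2 CPM, and Hoxa3, at 3.83 ± 0.642 and 4.88 ± 1.09 CPM, were not called. Foxn1 thus lay with this list in direction and apart from Psmb11, Prss16 and Tbata.

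The members were also compared with genes of epithelium as a whole. Epcam, an adhesion molecule of epithelium that is richer in medulla than in cortex, was at 46.8, 47.7 and 45.6 CPM in control and at 566, 519 and 496 CPM in RANKL libraries, and Cdh1, E-cadherin, rose by 3.18 ± 0.24. In relation to Epcam all 9 members were lower in every RANKL library than in every control library, as were 89.1% of all genes, so that count is near the background. The sizes differed by member. The mean log2 ratio of Psmb11 to Epcam went from 1.41 ± 0.21 to -8.57 ± 1.75 (SD, n = 3), that of Kitl from -1.43 ± 0.25 to -5.05 ± 0.16 and that of Foxn1 from -0.79 ± 0.36 to -3.44 ± 0.39. With 3 libraries against 3 an exact two-sided permutation test of such a ratio cannot go below 0.10, which each of the 9 ratios reached. Krt8, a keratin of cortical and other simple epithelium, changed far less, at 0.52 ± 0.20 (adjusted p = 0.0439, a call that 6 of the 12 other settings ended, with an adjusted p of up to 0.159). In relation to Krt8 the Foxn1 ratio was 0.32 higher in RANKL libraries with overlapping groups, while the other 8 members stayed lower without overlap, as did 44.4% of all genes.

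**Figure D4:**
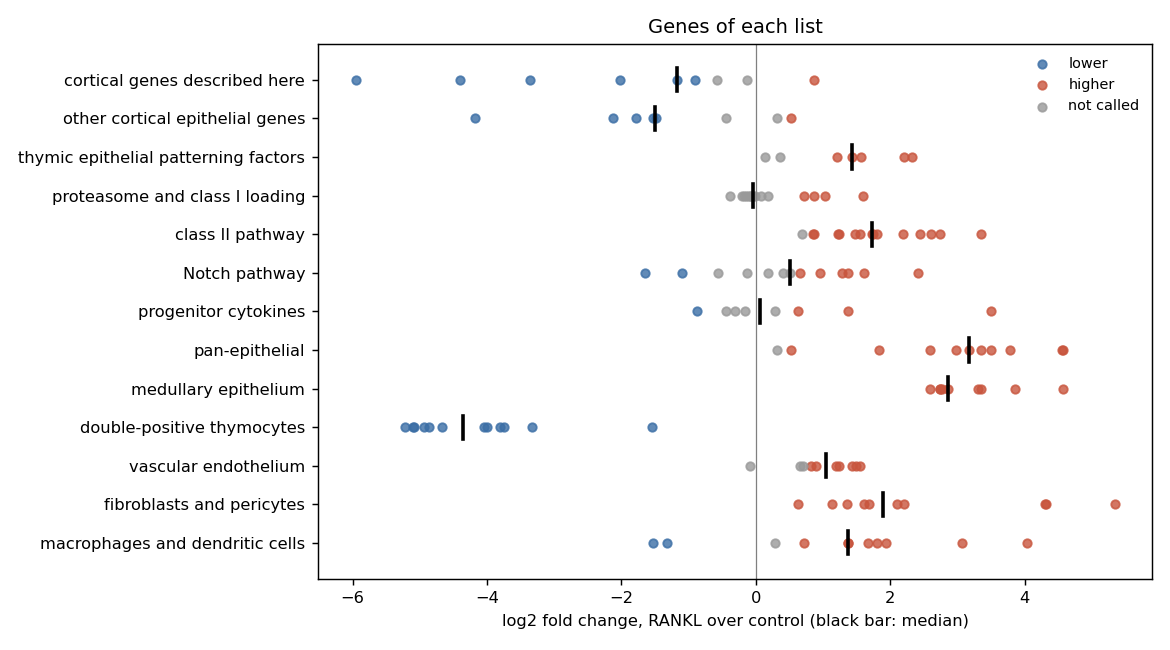
Log2 fold changes, RANKL over control, of the tested genes of 13 lists, 1 point per gene, coloured by call, with a black bar at each list's median. The cortical lists lie mostly to the left of 0, with some genes to its right, at medians of -1.18 and -1.51. Double-positive thymocyte genes lie at a median of -4.35 and medullary and pan-epithelial genes at medians of 2.87 and 3.18.

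Other genes of cortical epithelium were split in the same way. Of 8 such genes 5 were lower, 1 was higher and 2 were not called, with a median of -1.51. Ccl25, a chemokine that draws progenitors, was at 539, 514 and 833 CPM in control and at 22.7, 10.1 and 71.8 CPM in RANKL libraries (log2 fold change -4.17 ± 0.65, SE; -5.24 without RANKL replicate 3). Cxcl12 fell by 2.13, the chemokine scavenger receptor Ackr4 by 1.78, the transporter Slc46a2 by 1.53 and Cd83, which cortical epithelium uses to keep class II on its surface, by 1.48 on the log2 scale. Krt8 was the 1 higher, and Krt18 and Il7 were not called. Against these, medullary epithelial genes were higher in 9 of 9 tested, with sums of 747 to 849 CPM in control and 5515 to 6298 CPM in RANKL libraries; among them Aire rose by 3.85 ± 0.35. Ccl21a was on that list and is listed at 0 in all 6 libraries. Pan-epithelial genes were higher in 10 of 11, among them Krt5 at 2.59 ± 0.21, with sums of 1442 to 1735 and 5918 to 7636 CPM. The medullary and pan-epithelial lists are not separate, as Krt5 and some other genes are on both, and Ctss is on the medullary and class II lists. Krt8 and Krt18 are on both this cortical list and the pan-epithelial list, and Il7 is also on the progenitor cytokine list. Krt5, at a mean of 392 CPM in control and 2360 CPM in RANKL libraries, was a large part of both sums.

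Scaled by transcript length, the members stood in a different order in the groups. In control libraries Ctsl led at 1119 ± 327 CPM per kb, followed by Prss16 at 451 ± 48.9 and Tbata at 410 ± 52.1, whose libraries overlapped. Psmb11 at 29.4 ± 3.56 and Ly75 at 25.9 ± 10.8 overlapped as well, then came Foxn1 at 8.56 ± 2.22, Enpep at 7.69 ± 2.02 and Dll4 at 5.64 ± 1.37, each overlapping the next, and Kitl last and apart at 3.10 ± 0.563. In RANKL libraries Ctsl still led, at 597 ± 160 CPM per kb. Tbata at 39.9 ± 29.8, Prss16 at 21.5 ± 21.5, Foxn1 at 15.5 ± 4.90 and Ly75 at 11.4 ± 1.93 followed, each overlapping the next. Dll4 at 3.77 ± 0.727, Kitl at 2.83 ± 0.513 and Enpep at 1.89 ± 0.595 overlapped in turn. Psmb11, the fourth in control, was last and apart at 0.478 ± 0.511. These places rest on the transcript lengths used.

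The RANKL libraries also differed from each other in these genes. Psmb11, Prss16, Tbata, Ly75 and Enpep were all highest in RANKL replicate 3 and all lowest in RANKL replicate 2, whereas 30.6% of all tested genes were highest in replicate 3 and 33.9% lowest in replicate 2. RANKL replicate 3 held 5.54 times the mean of the other RANKL libraries for Psmb11, 5.09 times for Prss16 and 3.19 times for Tbata, but 1.64 times for Enpep and 1.21 times for Ly75. Foxn1 and Kitl were highest in RANKL replicate 1, and Dll4 and Ctsl in RANKL replicate 2. Foxn1, the member that was higher, was also lowest in RANKL replicate 2. The coefficient of variation of Psmb11 over RANKL libraries was 106.9%, against 12.1% over control libraries, and for Kitl it was 18.1% and 18.2%.

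Double-positive thymocyte genes were lower in 12 of 12, and their summed level went from 11195 to 12761 CPM in control to 261, 560 and 1160 CPM in RANKL replicates 1, 2 and 3. They too were highest in RANKL replicate 3, in 12 of 12, but their sum was lowest in RANKL replicate 1 and not in replicate 2. Rag1, a subunit of the recombinase, was at 6.19, 74.3 and 160 CPM in RANKL replicates 1, 2 and 3, where Psmb11 was at 1.29, 0.325 and 4.48. RANKL replicates 1 and 2 thus stood in opposite order in the thymocyte sum and in Psmb11. Not every gene of the list had the order of the sum and of Rag1. Ptcra, also on it, was at 0.484, 0.285 and 1.98 CPM in RANKL replicates 1, 2 and 3, from 9, 7 and 42 reads. The part of double-positive thymocytes in the decreases, in the increases and in the values of genes not called was not tested.

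**Figure D5:**
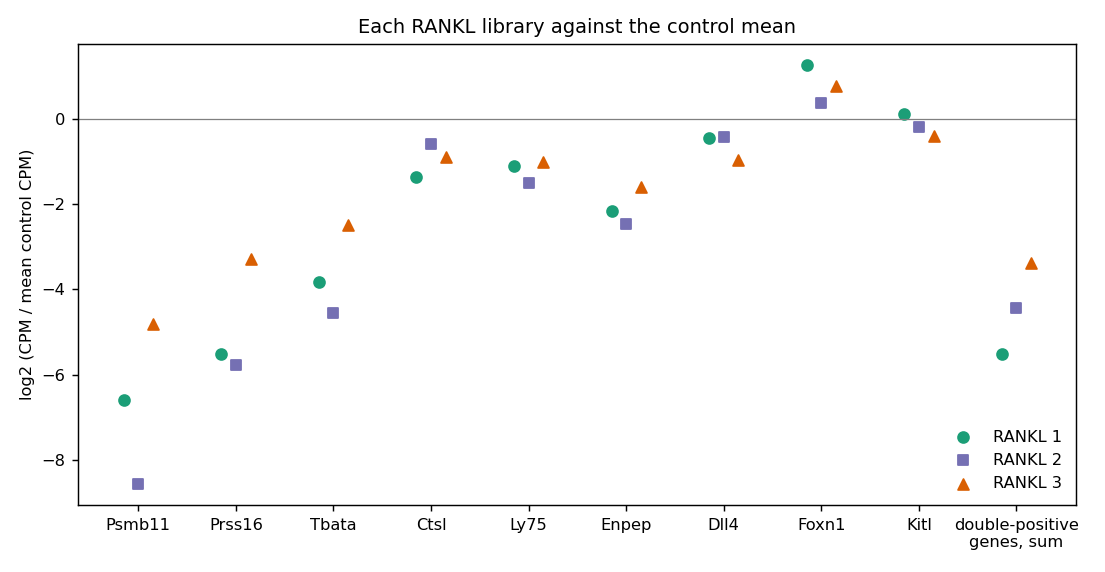
Log2 ratio of CPM in each RANKL library to the control mean, for the 9 genes and for the sum of 12 double-positive thymocyte genes; green circles are RANKL replicate 1, violet squares 2 and orange triangles 3. Psmb11 lies at -6.60, -8.59 and -4.80 and the thymocyte sum at -5.53, -4.42 and -3.37.

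Genes most like a member were found from log2 CPM centred on each gene's own mean over the 6 libraries, by the root mean square difference, among 13255 other genes. Closest to Psmb11 were Ptcra, a chain of the receptor that early thymocytes carry and a gene of the double-positive list, at a difference of 0.68, H2-T3, a class I-like gene of cortical thymocytes, at 0.85 and Prss16 at 0.93, against a median of 3.35. Closest to Prss16 were Crip3, a LIM domain protein of thymus, at 0.19, Ptcra at 0.28 and H2-T3 at 0.35, against a median of 2.51, while Tbata was in place 22 and Psmb11 in place 66. Around Foxn1 stood Rassf4 at 0.069, Rgmb at 0.094 and Tbc1d16 at 0.10, around Dll4 Lrrc20 at 0.093, Iba57 at 0.098 and Opa3 at 0.10, and around Kitl Scarf2 at 0.065, Gna11 at 0.065 and Sh2b3 at 0.073, against medians of 0.76, 0.54 and 0.52. The nearest member was Kitl in place 3555 for Foxn1, Kitl in place 2150 for Dll4 and Dll4 in place 2408 for Kitl. These are descriptions over 6 libraries, which all the genes share.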

How the data were processed

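Messenger RNA of whole thymus was sequenced in 3 control and 3 RANKL libraries. The deposited values are whole-number counts per gene, made by the authors with STAR on mm10, per the submitters' processing notes; for the STAR version, counting tool, strand setting and annotation the entry is "not given in the sources used here". Totals were 18254870 to 25357060 counts; intervals cover counting error only. Genes were filtered with filterByExpr and tested with edgeR 4.0.16 in R 4.3.3 (TMM factors, robust quasi-likelihood fit, two-sided, Benjamini-Hochberg adjustment over 16096 genes, threshold 0.05), with no covariate. CPM use TMM-scaled totals. Ratios and likeness use log2 CPM with a prior count of 2, and likeness left out genes whose mean log2 CPM was under 1. Levels per kb use the median length of basic GENCODE transcripts paired with a curated RefSeq mRNA. Alternatives were DESeq2 1.42.0, other size factors, no filter, no robust fit, a block for the number in the sample titles, a threshold of 0.01, other reference genes and each library left out.

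The fit was tested on simulated data for the RANKL against control comparison, with 200 genes changed, of which 184 passed the filter among 14762 tested: 40% of 48 2-fold, 91% of 44 4-fold, 98% of 46 8-fold and 100% of 46 16-fold changes were recovered, and 10 of 160 calls were false. The simulation changed far fewer genes than the 4765 lower and 5437 higher called in the real libraries. Its rates of recovery and of false calls therefore need not hold for them. Replicates of a group differed beyond sampling noise (chi-square per degree of freedom 31.7 to 67.9), so none was counted as a repeat of another. The genes named are the 9 members, 20 context genes, the 3 genes most like each of 5 members, and genes drawn from the companion lists (lists of other cell types are given mainly as counts and sums). The companion genes were drawn from up to 4 genes with the smallest p of each list and from any list class (higher, lower, not called) of at most 5 genes. Not every companion gene that this rule gives was named. The counts over settings cover the members and 55 other genes, taken from this set for the text. Some genes of the companion lists are not reported here and were left out of the counts of their list. The members and lists were chosen with earlier results of these data known.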

Additional observations from a re-analysis of the deposited data

How the results depend on the processing

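The count of members lower in RANKL libraries was 6 and lay between 5 and 7 under all alternatives run: 7 without the low-count filter and with DESeq2, 5 at a threshold of 0.01, and 5 to 7 with 1 library left out. The count of members higher was 1, and 0 at a threshold of 0.01 (edgeR; 1 at an unadjusted p under 0.05 and 1 with DESeq2 at 0.05); with 1 library left out it was 0 to 1, being 0 without control replicate 2 or control replicate 3. Over 12 settings for each of 9 members, 99 values kept direction and call, 4 lost the call, 3 gained it and 2 changed sign, both for Kitl (0.038 with the block for the title number, and -0.29 to 0.015 with 1 library left out, the sign turning without RANKL replicate 3). Over the 55 other named genes 609 kept both, 31 lost the call, 5 gained it and 15 changed sign, all of genes not called. With the title block Gna11 turned to 0.077, Scarf2 to 0.0056 and Sh2b3 to 0.10, and without composition factors Psmb9 turned to 0.027. With 1 library left out the ranges that crossed 0 were -0.29 to 0.029 for Gna11, -0.24 to 0.024 for Scarf2, -0.21 to 0.072 for Sh2b3, -0.23 to 0.026 for Psmb5, -0.21 to 0.11 for Psmb8, -0.12 to 0.21 for Psmb9 and -0.20 to 0.17 for Psmb10. With Krt8 in place of Epcam the Foxn1 ratio turned to 0.32. The cause of these changes was not tested. Without the low-count filter the median log2 fold change of all genes was 0.11. The labels give no replicate numbers, and those used here follow accession order and pair nothing. The sample titles share number ranges across groups, with control replicate 2 alone in its range, and the fit with a block for that range called 6 members lower and 1 higher, and 4557 of all genes lower and 5236 higher against 4765 and 5437 without it.

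The number of libraries, 3 a group, limits these comparisons, and the size of the Psmb11 decrease rests on 8 to 95 reads in the RANKL libraries.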
